A study of Drosophila melanogaster with 9 samples.

Results

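The genes dpr1 to dpr10 are 10 of the 21 fly dpr genes (defective proboscis extension response), and they were taken by name from a deposited expression table of 16854 genes, where each has 1 line. Dpr proteins are cell surface proteins with a pair of immunoglobulin domains. They bind the DIP proteins (Dpr-interacting proteins), which also have immunoglobulin domains, across the gap between neighbouring cells. Different Dpr proteins prefer different DIP partners. In the fly visual system and at the larval nerve-muscle junction, Dpr and DIP pairs are known to guide the choice of partners and the survival of neurons.

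RNA was measured in cells sorted from fly brains whose optic lobes had been removed, in 3 populations at 2 stages: adult, and the pupa at 45 h after puparium formation (45 h APF). Kenyon cells (KC), the intrinsic neurons of the mushroom body, carried GFP through MB247:LexA and LexAop:GFP, over the balancer TM2. Olfactory projection neurons (PN), which bring odor signals to them, carried tomato through GH146:Gal4 and UAS:tomato, over the balancer CyO. The third population (DN) had neither label. All flies had both labels in their genotype and both sexes were pooled. Neither driver marks every cell of its type, so DN can hold unlabelled KC and PN. The study asks, by its title, about depletion of cell surface molecules, the question the dpr levels bear on.

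The values are FPKM (RNA fragments for each kilobase of transcript, relative to the library's mapped reads), a scale per length of transcript, so levels of different genes can be set side by side. The authors averaged the adult libraries, of which the labels give 2 per cell type, and a pupal value comes from 1 pooled library. No single value therefore has an error, and the levels below are descriptions of these 6 columns. Adult libraries were read for 50 bases and pupal ones for 75 bases on another sequencer, so stage and sequencing cannot be told apart. In each sorted population, fewer cells with the RNA and less RNA per cell cannot be told apart.

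The labels of the cells were set against marker genes. The 4 Kenyon cell markers (ey, prt, dac and Hr51) summed to 926 FPKM in adult KC, where PN had 5.85 and DN 31.0. In pupal KC the sum was 1083 FPKM, where PN had 8.60 and DN 18.2. The 4 projection neuron markers (Oaz, acj6, vvl and C15) summed to 298 FPKM in adult PN and 107 in pupal PN. Their sums were at most 1.91 in KC and 17.0 in DN. Of these vvl did not set PN apart from DN. It was at 5.74 FPKM in adult PN against 5.24 in DN, and at 0.860 in pupal PN against 4.10 in DN. The 8 glial markers, among them repo and alrm, summed to 125, 61.2 and 219 FPKM in adult KC, PN and DN, and to 175, 1597 and 672 FPKM at 45 h APF. None of the 8 was listed at 0 in any column, and nrv2 gave the most in pupal PN (936 FPKM). Muscle markers (6 genes) summed to 193 FPKM in pupal DN and to at most 6.92 in the other 5 columns, with Mhc at 0.872 FPKM in pupal DN and listed at 0 in both KC columns.

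For all 10 members the table gives the same start and end in dm6 as the Ensembl annotation of that name. The gene dpr1 lies on chromosome 2R (20698483 to 20750442, plus strand). On 2L lie dpr2 (10917015 to 10964153, minus) and dpr3 (2058790 to 2109878, minus). These 3 genes span 51960, 47139 and 51089 bases with 3598, 3039 and 3160 bases of exon. The longest members are dpr6 and dpr8, spanning 164710 and 140126 bases. The pair dpr5 (3R, 11499984 to 11505951, plus) and dpr4 (3R, 11533483 to 11542949, minus) are neighbours 27531 bases apart, with no other gene lying wholly between them. Another neighbouring pair, dpr6 (3L, 9974651 to 10139360, plus) and dpr10 (3L, 10147454 to 10186108, minus), point at each other across 8093 bases. Of the rest, dpr7 lies on chromosome 4 (247124 to 253329, minus), dpr8 on X (14322226 to 14462351, plus) and dpr9 on 3R (15054930 to 15077206, minus). The exons of dpr4 overlap an antisense RNA gene, asRNA:CR45056, over 469 bases (15.7% of its exon length). Strand-specific counting is not stated, so part of the dpr4 value may come from that RNA, by an amount not known. The table lists asRNA:CR45056 at 2.25 to 6.47 FPKM over the 6 columns. The other 9 share no exon with another annotated gene.

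Across the 6 columns the members ranged widely in level. The adult medians were 29.6 (KC), 53.6 (PN) and 38.2 FPKM (DN), and the pupal medians 9.06 (KC), 18.7 (PN) and 32.6 FPKM (DN). The highest member was dpr7 in 5 of the 6 columns and dpr4 in pupal KC (57.8 FPKM). All 10 reached 5 FPKM in every PN and DN column, while 7 did in adult KC and 6 in pupal KC. Among all genes the share at 5 FPKM was alike in the columns, between 37.2% in pupal KC and 40.7% in pupal DN. The members below 5 FPKM in KC were dpr1, dpr2 and dpr3 at both stages, and dpr6 at 45 h APF.

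**Figure D1:**
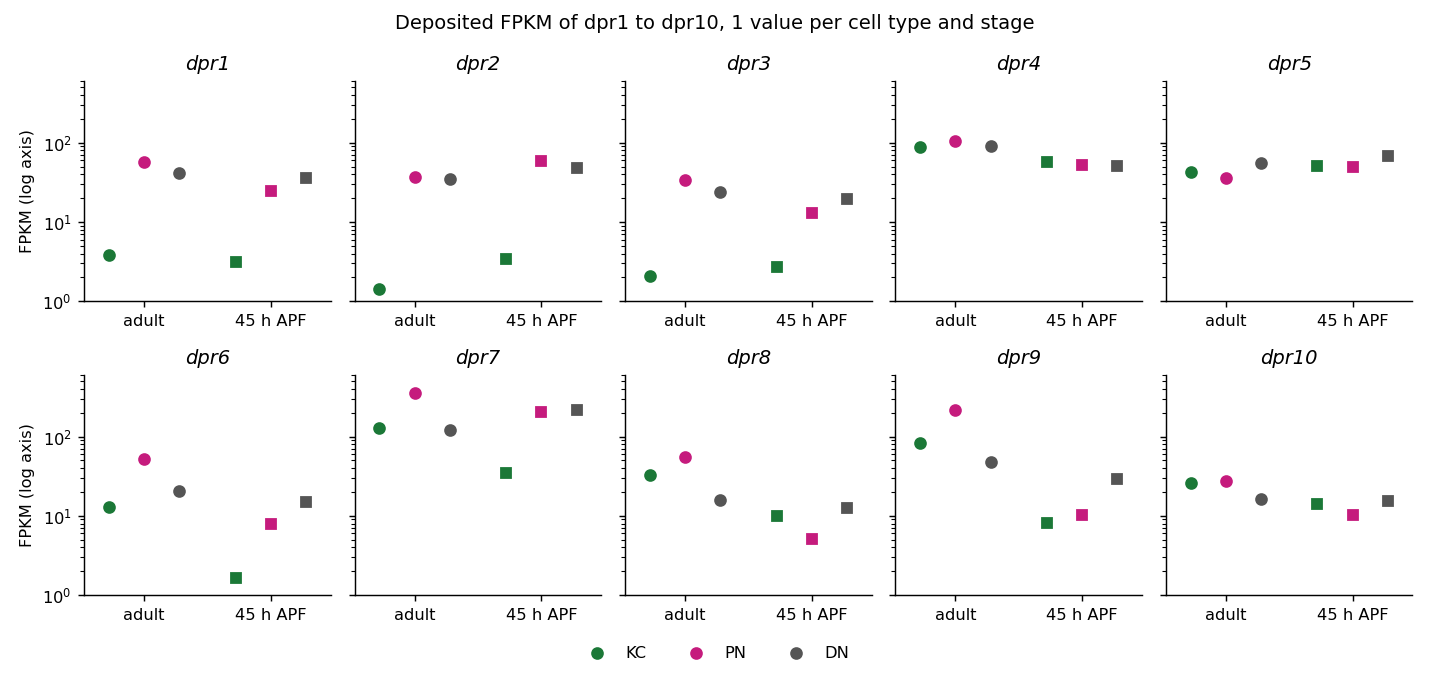
Deposited FPKM (log axis) of each gene in adult (circles) and 45 h APF (squares) KC, PN and DN, 1 point per deposited column and no error bars. The KC points of dpr1, dpr2 and dpr3 sit between 1.42 and 3.82 FPKM at both stages, and all PN and DN points of these genes are at 13.0 FPKM or more.

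The genes dpr1 to dpr5 make a subgroup of related proteins, members of which are known to bind DIP-eta, DIP-theta and DIP-iota. In these data the subgroup was split: dpr1, dpr2 and dpr3 were low in KC and higher in PN and DN at both stages, while dpr4 and dpr5 stood at like levels in all cells. The founding gene dpr1, named for flies that extend the proboscis to salty food they would otherwise refuse, was at 3.82 FPKM in adult KC, while PN had 57.0 and DN 41.7 FPKM. At 45 h APF dpr1 was at 3.09 FPKM in KC, while PN had 24.3 and DN 36.2 FPKM. Adult KC thus held 6.69% of the PN level and 9.14% of the DN level, and pupal KC 12.7% and 8.54%.

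The second gene, dpr2, was at 1.42 FPKM in adult KC, while PN had 37.5 and DN 34.7 FPKM. The pupal level was 3.38 FPKM in KC, and PN had 58.5 and DN 47.4 FPKM. It spanned the widest range of the 10, with its highest column 41.1 times its lowest. For dpr3 the adult levels of KC, PN and DN were 2.11, 34.3 and 23.7 FPKM, and the pupal levels 2.74, 13.0 and 19.5 FPKM. KC were the lowest of the 3 populations for all of these genes at both stages. PN and DN were much closer to each other: their dpr2 values differed by 0.11 in the adult and 0.30 at 45 h APF on the log2(FPKM + 1) scale, with PN higher.

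By contrast dpr4 was at 88.0, 105 and 90.0 FPKM in adult KC, PN and DN, and at 57.8, 52.8 and 50.4 FPKM in the pupal columns. Its neighbour dpr5 was at 43.0, 35.8 and 56.2 FPKM in adult KC, PN and DN, and at 50.6, 49.8 and 67.3 FPKM at 45 h APF. The highest column was 2.09 times the lowest for dpr4 and 1.88 times for dpr5, the narrowest ranges among the members. In pupal KC these were the most abundant members. In adult KC dpr7 was above both, and dpr9 lay between dpr4 and dpr5.

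The genes dpr6 and dpr10 encode closely related proteins that bind DIP-alpha, a pair of contacts known from the layers of the optic lobe, and both also bind DIP-beta. Despite their shared place on 3L they differed in KC. At 1.64 FPKM dpr6 was the lowest of the 10 in pupal KC, while PN had 7.81 and DN 15.01 FPKM. Its adult values were 12.9, 51.7 and 20.5 FPKM. The gene dpr10, also known from larval muscle, varied less: 26.2, 27.4 and 16.3 FPKM in adult KC, PN and DN, and 14.2, 10.2 and 15.5 FPKM at 45 h APF. Muscle markers were present in the pupal DN column, where dpr10 stood at 15.5 FPKM, and their part in that value was not tested.

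The remaining 3 genes had their highest level in adult PN, as did dpr1, dpr3, dpr4, dpr6 and dpr10. The most abundant member, dpr7, was at 129, 356 and 122 FPKM in adult KC, PN and DN, and at 34.7, 205 and 216 FPKM in the pupal columns. The KC level was 105% of the DN level in the adult and 16.1% of it at 45 h APF, and the adult difference changed sign under quantile normalization and upper quartile scaling. The genes dpr8 and dpr9, whose proteins are among the partners of DIP-beta, were the members with the lowest PN level relative to DN at 45 h APF and the highest in the adult. For dpr8 the adult levels of KC, PN and DN were 33.0, 55.5 and 15.7 FPKM, and the pupal levels 9.90, 5.14 and 12.7 FPKM. For dpr9 they were 81.9, 214 and 48.4 FPKM in the adult and 8.21, 10.3 and 29.1 FPKM at 45 h APF.

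KC were then compared with PN and with DN within each stage, on the log2(FPKM + 1) scale, and a gene was counted when it was at least 2-fold lower or higher on that scale. All 10 members averaged 1 FPKM or more over each stage's 3 columns, the level needed to enter the comparison. In the adult 3 of 10 members (dpr1, dpr2 and dpr3) had a KC value lower by 2-fold or more than the values of PN and DN alike, beside 7.88% of all 8515 genes kept. At 45 h APF 5 of 10 were (dpr1, dpr2, dpr3, dpr6 and dpr7), beside 11.5% of 8603 genes. No member had a KC value that far above PN and DN alike at either stage, beside 4.38% and 5.44% of all genes. Both comparisons share the KC column, so a low KC value counts in each.

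Against PN, 6 of 10 members were at least 2-fold lower in adult KC (19.9% of all genes), namely dpr1 (-3.59), dpr2 (-3.99), dpr3 (-3.50), dpr6 (-1.92), dpr7 (-1.46) and dpr9 (-1.38). The member median was -1.42, beside 0.01 over all genes kept. At 45 h APF 5 of 10 were lower (18.1% of all genes): dpr1 (-2.63), dpr2 (-3.76), dpr3 (-1.91), dpr6 (-1.74) and dpr7 (-2.53), with a member median of -1.02 beside 0.02. None was at least 2-fold higher in KC than in PN at either stage, beside 12.1% of all genes in the adult and 9.07% at 45 h APF, though with quantile normalization dpr8 was at 45 h APF (1.13). The 6 pan-neuronal genes (elav, nSyb, Syt1, brp, para and Syx1A) summed to 1088 FPKM in adult KC against 3815 in PN. At 45 h APF they summed to 208 FPKM in KC against 292 in PN. Of these genes elav (16.0 FPKM against 12.3), Syt1 (18.8 against 8.85) and brp (7.08 against 6.98) were higher in pupal KC than in PN. The others, nSyb, para and Syx1A, were lower. Summed glial markers stood at 125 FPKM in adult KC against 61.2 in PN. Most of both adult sums was nrv2 (104 and 46.6 FPKM), and Gat, moody and Indy were lower in adult KC than in PN. At 45 h APF the glial sum stood at 175 FPKM in KC against 1597 in PN, though wrapper was higher in KC (49.0 against 14.1). The part of either list in these differences was not tested.

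Against DN the stages were less alike. In the adult 3 of 10 were at least 2-fold lower in KC (13.1% of all genes): dpr1 (-3.15), dpr2 (-3.88) and dpr3 (-2.99). One member, dpr8, was higher in adult KC by 1.03 (8.39% of all genes), just past the threshold, which it missed with a pseudocount of 5 FPKM (0.88) and with upper quartile scaling (0.92). The member median was -0.21 beside 0.03. At 45 h APF 6 of 10 were lower (19.9% of all genes), the same 3 with dpr6 (-2.60), dpr7 (-2.60) and dpr9 (-1.71), and none was higher, beside 9.54%. The member median was -2.08 beside 0.02. The pan-neuronal genes summed to 1088 FPKM in adult KC against 1018 in DN, and to 208 FPKM in pupal KC against 459 in DN. In the adult para (4.30 against 8.43) and Syx1A (42.0 against 97.3) were lower in KC, and the others higher. At 45 h APF each was lower in KC. Summed glial markers stood at 125 FPKM in adult KC against 219 in DN, and at 175 against 672 at 45 h APF. Among them nrv2 in the adult (104 against 67.9) and wrapper at both stages were higher in KC. The part of either list in these differences was not tested.

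**Figure D2:**
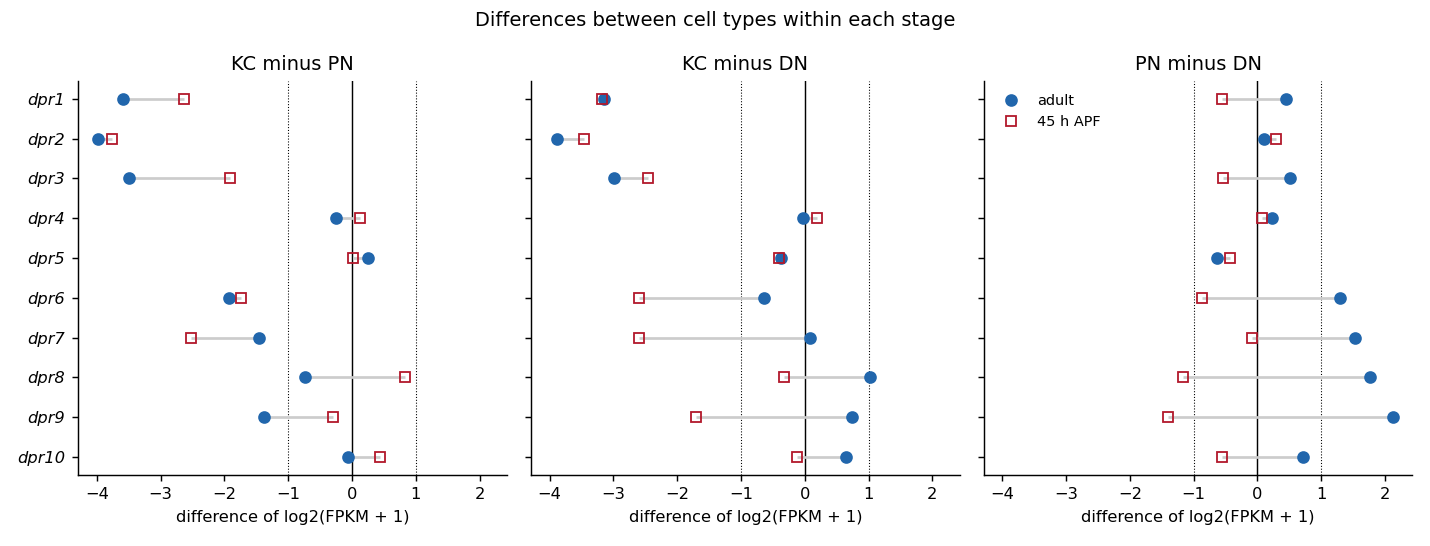
Difference of log2(FPKM + 1) between cell types for each gene, with adult as filled circles and 45 h APF as open squares (1 value each, no error), and dotted lines at 2-fold. For dpr1, dpr2 and dpr3 both stages lie between -3.99 and -1.91 in the KC panels. PN minus DN is above 0 in the adult and below 0 at 45 h APF for dpr1, dpr3 and dpr6 to dpr10.

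PN and DN were set side by side to see how the members differ between the populations not sorted as KC. In the adult 4 of 10 were at least 2-fold higher in PN (16.9% of all genes): dpr9 (2.12), dpr8 (1.76), dpr7 (1.54) and dpr6 (1.29). None was lower, beside 9.49% of all genes. At 45 h APF 2 of 10 were lower in PN (9.36% of all genes), dpr9 (-1.41) and dpr8 (-1.16), and none was higher, beside 7.31%. With a pseudocount of 5 FPKM the pupal count became 1. The pan-neuronal genes summed to 3815 FPKM in adult PN against 1018 in DN, and to 292 FPKM in pupal PN against 459 in DN. They thus also lay higher in PN in the adult and lower at 45 h APF. The glial sum ran the other way. It was at 61.2 FPKM in adult PN against 219 in DN, and at 1597 in pupal PN against 672 in DN. Of the glial markers only wrapper was lower in pupal PN than in DN (14.1 FPKM against 43.0). Muscle markers summed to 0.969 FPKM in pupal PN against 193 in DN. The part of these lists in the dpr differences was not tested.

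The stages were compared within each cell type, where adult levels over all 8867 genes kept had a median change of -0.26 in KC, -0.30 in PN and -0.17 in DN. In PN 6 of 10 members were at least 2-fold higher in the adult than at 45 h APF, beside 23.3% of all genes: dpr9 (4.25), dpr8 (3.20), dpr6 (2.58), dpr10 (1.34), dpr3 (1.33) and dpr1 (1.20). In KC 4 of 10 were, beside 17.9%: dpr9 (3.17), dpr6 (2.40), dpr7 (1.86) and dpr8 (1.64). In DN none was, beside 11.8%, and its differences ran from -0.82 for dpr7 to 0.82 for dpr4. No member was at least 2-fold lower in the adult in any of the 3, beside 22.6%, 30.8% and 21.0% of all genes in KC, PN and DN. With quantile normalization or upper quartile scaling 1 member was past 2-fold in DN. The member medians were 0.72 in KC, 1.26 in PN and 0.23 in DN. For dpr2 the adult value was the lower one in all 3 cell types, with differences of -0.85 in KC, -0.63 in PN and -0.44 in DN, and that of KC passed 2-fold with a pseudocount of 0.1 FPKM (-1.19). Marker lists also differed between the stages. The pan-neuronal sum was higher in the adult in all 3 populations, at 3815 FPKM in adult PN against 292 at 45 h APF, at 1088 against 208 in KC and at 1018 against 459 in DN. The glial sum was lower in the adult, at 61.2 FPKM in adult PN against 1597 at 45 h APF. It was at 125 against 175 in KC and at 219 against 672 in DN. The drop in KC was mainly wrapper, at 0.344 FPKM in the adult against 49.0 at 45 h APF. In adult KC nrv2 (104 against 100), Eaat1 (7.61 against 5.15) and Gat (3.88 against 2.37) were higher. In DN Eaat1 was at 51.8 FPKM at both stages. The part of these lists in the stage differences was not tested.

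**Figure D3:**
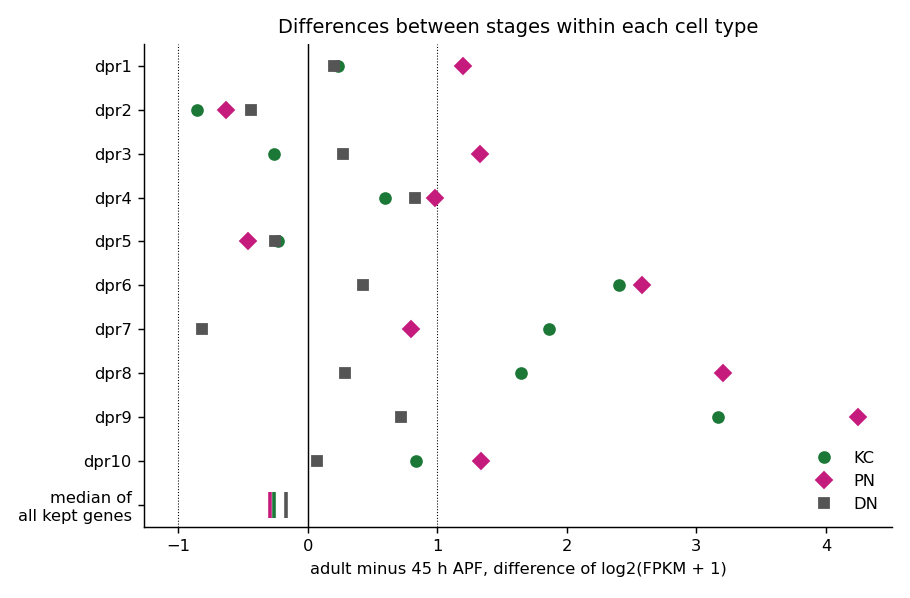
Adult minus 45 h APF on the log2(FPKM + 1) scale for each gene in KC (circles), PN (diamonds) and DN (squares), with the median over all 8867 genes kept as ticks in the bottom line. The KC and PN points of dpr6, dpr8 and dpr9 lie between 1.64 and 4.25, and all DN points lie between -0.82 and 0.82.

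Effects shared by the stages were tested with limma, with cell type and stage as additive terms over the 6 columns and all 8867 genes. The error in this fit comes from cell type differences that were unequal at the 2 stages and not from replicate flies. The KC minus PN effect was -3.88 for dpr2 (SE 0.38, limma adjusted p = 0.0205) and -3.11 for dpr1 (SE 0.44, adjusted p = 0.0468), so that 2 of 10 members fell in KC, beside 0.485% of all genes. Both also fell against DN, with effects of -3.67 for dpr2 (SE 0.38, limma adjusted p = 0.0316) and -3.17 for dpr1 (SE 0.44, adjusted p = 0.046), beside 0.462% of all genes. The value for dpr3 was -2.70 against PN (SE 0.53, limma adjusted p = 0.111) and -2.72 against DN (SE 0.53, adjusted p = 0.122), which missed the threshold of 0.05. No other member passed it in these contrasts and none was called higher in KC, beside 0.304% and 0.293% of all genes. The calls of dpr1 and dpr2 were lost when any 1 of the 6 columns was left out, where the differences themselves stayed between -4.04 and -2.62.

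For dpr4 the fitted difference of KC from PN was -0.06, with a 95% interval of -0.80 to 0.67, and from DN 0.08 (-0.65 to 0.82), a sign that turned with quantile normalization (-0.07) and upper quartile scaling (-0.02). For dpr5 the interval was -0.61 to 0.89 against PN and -1.15 to 0.36 against DN. The intervals for dpr8 and dpr9 were wider: -1.66 to 1.75 for dpr8 and -2.78 to 1.11 for dpr9 against PN. Between PN and DN limma called no member, beside 0.0226% of all genes called higher in PN and none lower, and 0 of 10 had an unadjusted p under 0.05, beside 3.85% of all genes. In the stage contrast dpr9 was higher in the adult by 2.71 (SE 0.65, limma adjusted p = 0.0329) and dpr6 by 1.80 (SE 0.51, adjusted p = 0.0493), 2 of 10 beside 8.03% of all genes. The model fits the same stage effect for every cell type, though the separate differences were smaller in DN. They were 3.17 (KC), 4.25 (PN) and 0.72 (DN) for dpr9, and 2.40, 2.58 and 0.43 for dpr6. Both calls were lost when any 1 of the 6 columns was left out (adjusted p from 0.0628 to 0.257), with no filter and with no trend, and that of dpr6 also with a pseudocount of 5 FPKM. For dpr8 the stage effect was 1.71 (SE 0.57, limma adjusted p = 0.0729) and for dpr4 0.80 (SE 0.25, adjusted p = 0.0596). With quantile normalization and with upper quartile scaling dpr4 was called as well (lowest limma adjusted p 0.0308).

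**Figure D4:**
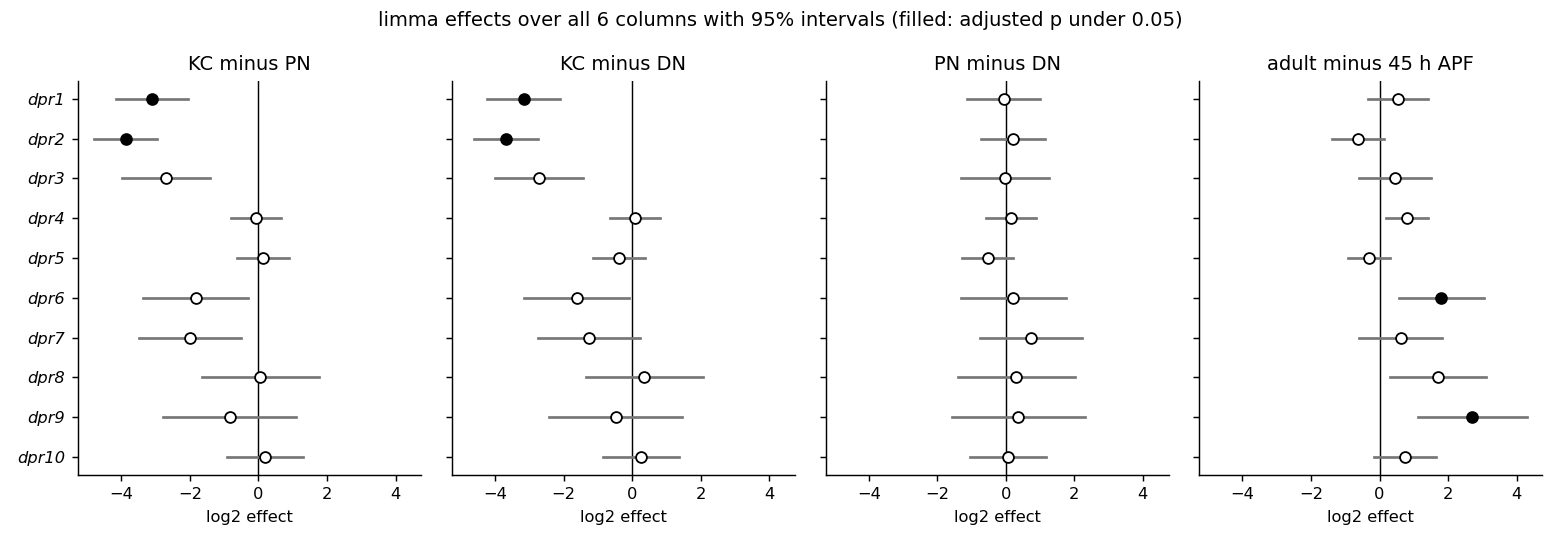
Fitted log2 effects of the additive limma model with 95% intervals for each gene in 4 contrasts, filled where the adjusted p over all 8867 genes was under 0.05. Filled points are dpr1 and dpr2 in both KC contrasts (-3.88 to -3.11) and dpr6 and dpr9 in the stage contrast (1.80 and 2.71).

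The rest of the Dpr and DIP network was measured alongside, to place dpr1 to dpr10 within it. Of dpr11 to dpr21, 6 of 11 had KC values lower by 2-fold or more than both other populations in the adult, beside 7.88% of all genes, and 6 of 11 at 45 h APF, beside 11.5%. Among the 11 DIP genes the counts were 9 in the adult and 5 at 45 h APF, beside the same shares. The limma calls in these lists were dpr11, dpr18, DIP-eta and DIP-theta, lower in KC in both contrasts, and DIP-epsilon, lower against PN, beside 0.485% of all genes against PN and 0.462% against DN. In addition dpr14 was called higher in the adult (1.67, SE 0.47, limma adjusted p = 0.0493), beside 8.03% of all genes. Like those of the members, each of these network calls was lost when any 1 of the 6 columns was left out. Both families hold members that were abundant in KC as well. In adult and pupal KC dpr19 was at 189 and 155 FPKM, dpr21 at 231 and 307, and DIP-kappa at 46.1 and 44.4. Over the 6 columns dpr19 ran from 145 to 222 FPKM, dpr21 from 231 to 549, and DIP-kappa from 20.4 to 64.5.

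The DIP genes whose products are named above as partners were low in KC. DIP-eta was at 0.668, 54.8 and 16.9 FPKM in adult KC, PN and DN, and at 0.424, 33.0 and 18.0 FPKM at 45 h APF. DIP-theta was at 1.01, 57.7 and 38.3 FPKM in adult KC, PN and DN, and at 2.98, 48.9 and 52.5 FPKM in the pupa. DIP-iota was at most 1.95 FPKM in any column (pupal DN). KC thus carried dpr4 and dpr5 at 43.0 FPKM or more at both stages, while none of these 3 DIP genes passed 2.98 FPKM there.

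DIP-beta, a partner of the Dpr6, Dpr8, Dpr9 and Dpr10 proteins, was at 0.244, 26.1 and 9.36 FPKM in adult KC, PN and DN, and at 0.156, 3.15 and 9.44 FPKM at 45 h APF. It lay higher in PN than in DN in the adult and lower at 45 h APF, and so did dpr6, dpr8, dpr9 and dpr10. These signs were not particular to them: 7 of dpr1 to dpr10, 6 of dpr11 to dpr21 and 6 of the 11 DIP genes had them, beside 22.9% of the 7778 genes kept at both stages. DIP-alpha was at 0.206, 4.50 and 2.57 FPKM in adult KC, PN and DN, and at 0.239, 0.580 and 2.42 FPKM at 45 h APF. In adult PN, dpr9 stood at 214 FPKM beside DIP-beta at 26.1.

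**Figure D5:**
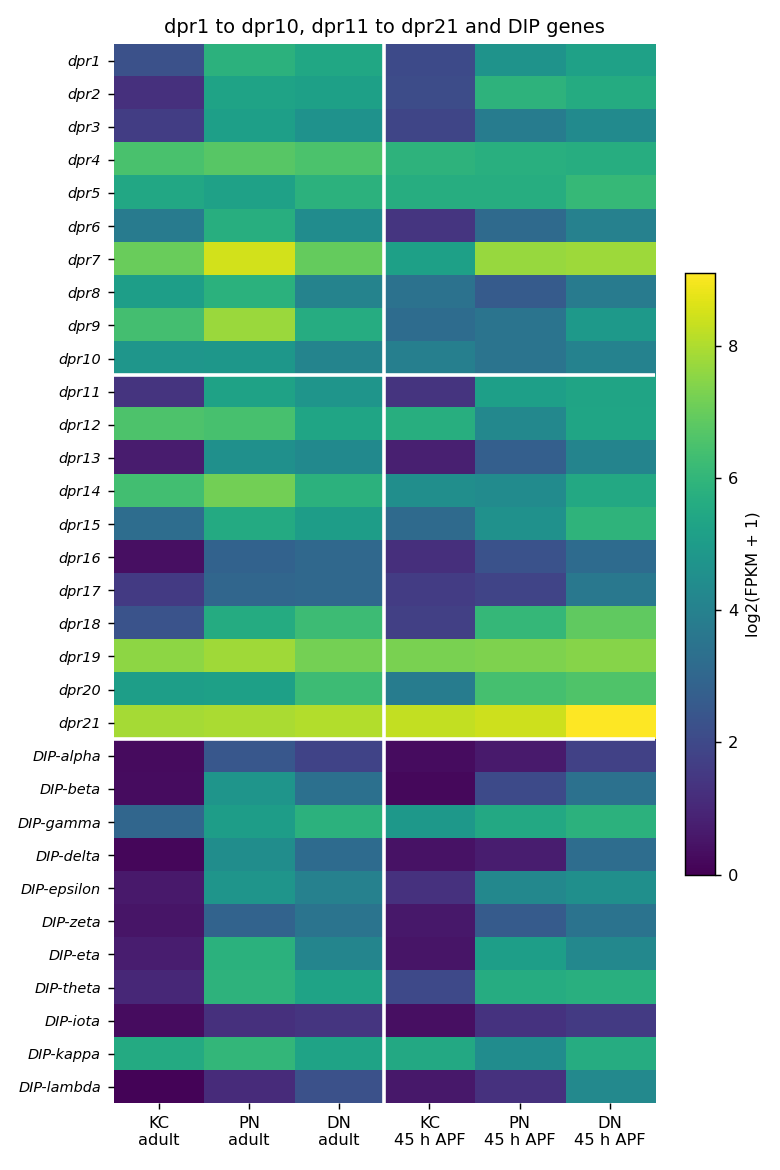
Level as log2(FPKM + 1) (colour) of dpr1 to dpr10, dpr11 to dpr21 and the 11 DIP genes in adult (left) and 45 h APF (right) KC, PN and DN. In the KC columns dpr4 and dpr5 are bright at 43.0 to 88.0 FPKM, and DIP-alpha, DIP-beta, DIP-eta and DIP-iota are dark at 0.156 to 0.668 FPKM.

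The gene most like each member was found as the one with the smallest root mean square difference between log2(FPKM + 1) profiles, each centred on its own mean over the 6 columns, among 8866 other genes. For dpr1 it was side (0.14), a cell surface protein of the immunoglobulin family that guides motor axons, and for dpr2 it was beat-IIb (0.15), of the Beat family that binds Side proteins. The nearest to dpr3 was CG34371 (0.16). Within the dpr and DIP genes dpr1 and dpr3 were each other's nearest (0.25), and the nearest to dpr2 was DIP-theta (0.31). For side the values were 1.07, 21.8 and 20.4 FPKM in adult KC, PN and DN, and 0.904, 9.26 and 18.0 FPKM at 45 h APF.

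The profile of dpr9 was nearest to Teh3 (0.16), which encodes an auxiliary protein of the sodium channel, at 95.6, 320 and 70.1 FPKM in adult KC, PN and DN and at 12.6, 17.2 and 36.9 FPKM at 45 h APF. For dpr6 it was RapGAP1 (0.18), a regulator of the small GTPase Rap1, for dpr8 enc (0.17) and for dpr7 Pnn (0.17). Within the network dpr8 was nearest to dpr14 (0.29), as was dpr9 (0.61), while dpr6 and dpr7 were each other's nearest at a larger distance (0.68). Profiles that vary little have many close neighbours: dpr4, dpr5 and dpr10 were nearest to CG14299 (0.10), CG7810 (0.08) and CG8757 (0.09). With 6 columns these distances are descriptions.

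Steps between the smallest values of the pupal columns were used to infer depths of about 23.9, 29.0 and 31.8 M reads (KC, PN and DN). At these depths 94.5%, 96.2% and 96.8% of low values are whole reads within 0.1, if the effective length is 200 bases under that of the transcript. On that scale the lowest pupal member value, dpr6 in KC, rests on about 99 to 196 reads, depending on the transcript. The dpr1, dpr2 and dpr3 values in pupal KC rest on about 118 to 251 reads. Depths about 2 times as large also made most low values whole in KC (95.1%) and PN (92.1%) and were not searched for DN, so these read numbers may be too low by about that factor. The depth behind the adult means is not known from the values, beyond the planned 25 M reads.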

How the data were processed

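Libraries were made from polyA RNA with SmartSeq V2, per the labels' protocols, and the submitters' processing notes name TopHat, Cufflinks and dm6 and give no version numbers. The deposited values are FPKM, computed by the authors. The labels give 9 libraries. Pupal libraries have 1 column each, and adult libraries had been averaged by the authors into 1 column per population. Of 16859 lines, 5 whose name had become a date were left out. The members and gene lists were chosen with earlier results of these data known. Named genes are all 10 members, their listed DIP partners, network genes called by limma and nearest profiles. DIP-kappa and DIP-lambda were found under the names CG31814 and CG45781.

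Values were analysed as log2(FPKM + 1), which understates the change of low genes. A gene entered comparisons within a stage if its 3 columns averaged 1 FPKM or more, and those between stages and the fit if all 6 columns did. Sizes within a stage or cell type have no test. The additive model was fitted with limma 3.58.1 in R 4.3.3, with a mean-variance trend, 2 residual degrees of freedom and p-values adjusted over all genes by the method of Benjamini and Hochberg. The fit was tested on simulated data. Alternatives were 2 other pseudocounts, 2 filters, 2 scalings, a prior with no trend and leaving out each column. Annotation was Ensembl release 115. No sequences are shown.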

Additional observations from a re-analysis of the deposited data

Results flagged for a closer look

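For some members a difference between cell types had opposite signs at the 2 stages, each by at least 0.5 on the log2(FPKM + 1) scale. With 1 value per cell type and stage, none of these changes was tested. For PN minus DN the adult difference exceeded the pupal one by 3.54 for dpr9, 2.92 for dpr8, 2.15 for dpr6, 1.27 for dpr10 and 1.06 for dpr3, all above 0 in the adult and below 0 at 45 h APF. For KC minus DN dpr9 was at 0.75 in the adult and -1.71 at 45 h APF, 2.45 apart. For KC minus PN dpr8 was at -0.73 in the adult and 0.83 at 45 h APF, -1.56 apart. The stage difference of dpr7 was 1.86 in KC, 0.80 in PN and -0.82 in DN, so that KC and DN lay 2.68 apart and PN and DN 1.62 apart.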

How the results depend on the processing

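Counts of members at least 2-fold apart in either direction moved by more than 1.5 times in 3 cases: 1 in place of 2 for PN minus DN at 45 h APF (lower in PN) with a pseudocount of 5 FPKM, and 1 in place of 0 for the stage difference in DN (higher in the adult) with quantile normalization and with upper quartile scaling. Counted by direction, a choice made after seeing the data, 4 more moved: those higher in KC than in PN at 45 h APF became 1 in place of 0 with quantile normalization, those higher in adult KC than in DN became 0 in place of 1 with a pseudocount of 5 FPKM or upper quartile scaling, and those lower in the adult in KC became 1 in place of 0 with a pseudocount of 0.1 FPKM. The 2 members called by limma for KC minus PN became 1 with a pseudocount of 5 FPKM, quantile normalization or no trend, and 0 with no filter on low values. For KC minus DN the 2 became 1 with quantile normalization or no trend, and 0 with a pseudocount of 5 FPKM or no filter. For the stage the 2 became 1 with a pseudocount of 5 FPKM, and 0 with no filter or no trend. With quantile normalization or upper quartile scaling the stage count became 3, as dpr4 was called too. With 1 column left out at a time, each leaving 1 residual degree of freedom, all 3 counts were 0 (lowest 0, highest 0). Of the alternatives' adjusted p, those of dpr2 for KC minus PN ran from 0.0105 to 0.377 and those of dpr1 from 0.0245 to 0.425. No called effect changed sign in any alternative. Quantile normalization moved the median of all genes for adult KC minus PN from 0.01 to 0.15, and 12 small member values, all within 0.30 of 0, changed sign under a scaling. No paired analysis was possible because the adult columns are means and carry no replicate number. The adult depth limits what can be said of low adult values.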
